A study of Homo sapiens with 28 samples.

Results

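FAM129A (also named NIBAN1) and FAM129B (also named NIBAN2 or MINERVA) are related human genes, and their mRNAs took opposite courses when LNCaP prostate cancer cells were put under endoplasmic reticulum (ER) stress. FAM129A averaged 187 ± 11.1 CPM (counts scaled to a common library size; SD, n = 4) in cells given tunicamycin and 18.8 ± 2.96 CPM in solvent-treated cells, whereas FAM129B averaged 163 ± 8.79 CPM with tunicamycin and 203 ± 9.56 CPM with solvent. An siRNA against ATF4 brought FAM129A down to 55.3 ± 16.1 or 14.6 ± 5.61 CPM, depending on the siRNA used. The 2 genes were taken by their symbols from the deposited count tables, which list 25369 genes.

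FAM129A encodes Niban, a cytoplasmic protein that is made during ER stress and other stresses and has been linked to the phosphorylation of the translation initiation factor eIF2α and to signalling by mTORC1, the kinase complex that sets the rate of translation. FAM129B encodes a relative with a pleckstrin homology domain, a lipid-binding fold, which sits at the plasma membrane and at cell contacts, is phosphorylated by the kinase ERK and has been linked to the survival of cancer cells. Tunicamycin blocks N-glycosylation, so unfolded proteins collect in the ER. PERK (gene EIF2AK3) is an ER membrane kinase that then phosphorylates eIF2α; general translation slows, while translation of ATF4, a transcription factor for genes of amino acid supply and stress, goes up.

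The cells were LNCaP, an established line from a metastatic prostate cancer, and all groups of 4 libraries were transfected with siRNA. In 5 groups tunicamycin was joined by an agent aimed at the pathway, called a block below. The activity of PERK is not measured by these counts. Control siRNA with the PERK inhibitor GSK2606414 at 100 nM made up TM PERKi siCtrl. Either of 2 siRNAs against PERK gave TM siPERK-1 and TM siPERK-3, and either of 2 against ATF4 gave TM siATF4-2 and TM siATF4-3. The other groups had control siRNA with tunicamycin alone (TM siCtrl) or with DMSO, the solvent (DMSO siCtrl). Tunicamycin was used at 2.5 µg/mL for 18 h, starting 2 days after transfection. The 4 libraries of a group came from separate experiments on 1 cell line, so the spread covers repeated cultures.

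The 28 libraries held 10794637 to 17253801 counts each. The count of FAM129A lay between 99 and 3642 per library and that of FAM129B between 1305 and 3755. EIF2AK3 stood at 21.4 to 30.5 CPM in the TM siPERK-1 libraries and 19.7 to 24.3 CPM in the TM siPERK-3 libraries, against 79.9 to 95.2 CPM in TM siCtrl. ATF4 stood at 177 to 358 CPM in TM siATF4-2 and 98.5 to 140.4 CPM in TM siATF4-3, against 1479 to 1562 CPM in TM siCtrl. Each siRNA group was thus low in the mRNA named on its label. All 9 listed markers of luminal prostate cells had enough counts to be tested. The basal marker TP63 was at 0 in every library, and the 4 basal markers together reached at most 1.59 CPM. The 5 mesenchymal markers summed to 28.1 to 60.6 CPM over all libraries, with COL1A2 at 0 in each, and the 5 leukocyte markers to 0.366 to 1.52 CPM. The luminal markers summed to 3268 to 3596 CPM in TM siCtrl and 6783 to 7791 CPM in DMSO siCtrl, with 3 of the 9 called higher and 6 lower, in a comparison where 34.3% of all genes tested were called higher and 34.7% lower (an adjusted p under 0.05); their part in the changes below was not tested.

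In the coordinates of the authors' count tables (build hg19), FAM129A lies on the minus strand of chromosome 1 between positions 184760159 and 184943718, with 14 exons and 6969 exon bases. FAM129B lies on the minus strand of chromosome 9 between 130267617 and 130341286, with 15 exons and 4077 exon bases. Neither shares exon bases with another gene in the tables. FAM129C, the remaining family member, is on chromosome 19; it had 0 to 4 counts per library and 16 counts in all 28 libraries together, too few to test.

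The stretch before the start of each gene is shown because the pair differ in their response to the same stress. The windows are 250 bases long, end at the base before the RefSeq start of transcription (GRCh38.p14, minus strand, written 5′ to 3′), and cover chr1:184974509-184974758 for FAM129A and chr9:127579032-127579281 for FAM129B. Capitals mark every match to 1 of 6 short motifs.
FAM129A: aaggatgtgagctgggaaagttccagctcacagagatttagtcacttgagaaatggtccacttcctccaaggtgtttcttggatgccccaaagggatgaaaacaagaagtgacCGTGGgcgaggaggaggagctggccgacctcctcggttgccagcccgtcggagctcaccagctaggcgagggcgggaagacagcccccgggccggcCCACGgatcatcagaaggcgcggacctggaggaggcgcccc
FAM129B: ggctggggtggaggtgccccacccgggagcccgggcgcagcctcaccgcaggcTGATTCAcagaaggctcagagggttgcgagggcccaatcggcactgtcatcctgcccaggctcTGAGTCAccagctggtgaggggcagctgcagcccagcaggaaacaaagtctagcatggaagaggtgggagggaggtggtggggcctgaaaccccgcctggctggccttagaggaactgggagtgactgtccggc

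In the FAM129A window the capitals are CCACG, the core bound by the ER stress factors XBP1 and ATF6, at 137 bases before the start on the minus strand of the window (read there as CGTGG) and at 41 bases before it on the plus strand. In the FAM129B window the capitals are TGANTCA, the AP-1 motif bound by FOS, JUN and related factors, at 197 and 134 bases before the start. CCACG was present in 33.5% of the 35116 promoter windows in the RefSeq table and TGANTCA in 6.57%. The other 4 motifs searched, on both strands, had no match in either window. These were the ATF4-C/EBP composite element TGATGNAA (3.14% of windows), the full ER stress element, which contains CCACG (0.074%), the cAMP response element TGACGTCA (1.65%) and the androgen receptor half-site AGAACA (12.4%). Only matches to these letters within the 250 bases were sought. Sites elsewhere in or around the genes, or with other letters, were not searched. The GC content was 61.2% for FAM129A and 66.0% for FAM129B, beside a median of 58.0% over all windows.

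FAM129A rose strongly with tunicamycin. It was at 178, 201, 190.2 and 178 CPM in the 4 TM siCtrl libraries, against 19.3, 22.2, 15.0 and 18.8 CPM in the 4 DMSO siCtrl libraries. Every tunicamycin library was far above every DMSO library. The log2 change was 3.31 ± 0.19 (SE), a 9.92-fold rise (adjusted p = 4.29e-13, edgeR quasi-likelihood test with Benjamini-Hochberg adjustment, as for all adjusted p-values below). A call is an adjusted p under 0.05. Tunicamycin changed much of the transcriptome: 69.0% of the 14314 genes tested were called, 34.3% higher and 34.7% lower. FAM129A was 100th among these 14314 genes, counted from the most raised. Since the values are shares of each library's RNA, fewer cells of a kind and less RNA per cell cannot be told apart.

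FAM129B fell modestly with tunicamycin. It was at 176, 158, 161 and 157 CPM in TM siCtrl and at 195, 216.5, 201 and 198 CPM in DMSO siCtrl. The groups did not overlap, and the nearest pair was the first TM siCtrl library and the first DMSO siCtrl library. The log2 change was −0.32 ± 0.05 (adjusted p = 5.1e-07). Counted from the most lowered of the 14314 genes, FAM129B was only 4080th, and 34.7% of all genes were called lower.

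**Figure D1:**
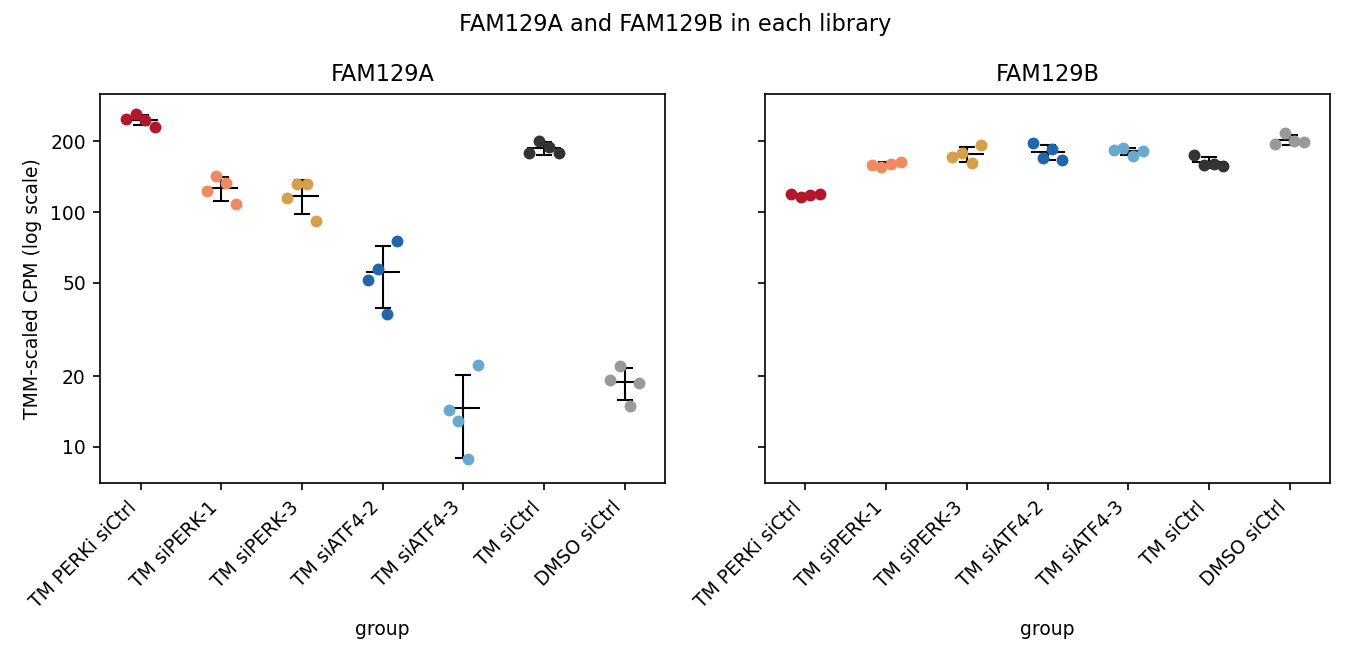
Level of FAM129A and of FAM129B in each of the 28 libraries (CPM, TMM-scaled, log axis), by group; points are libraries, the wide bar is the mean and the error bar the SD (n = 4). FAM129A covers means of 14.6 to 247 CPM over the 7 groups, FAM129B means of 118 to 203 CPM.

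The PERK inhibitor lowered FAM129B and did not lower FAM129A. FAM129A was at 249, 261, 248 and 231 CPM with the inhibitor during tunicamycin, above all 4 TM siCtrl libraries. The log2 change against TM siCtrl was 0.40 ± 0.16 (95% interval 0.07 to 0.74), and with an adjusted p of 0.057 it missed the threshold. Deviations from group means correlated at 0.149 to 0.393 between same-numbered libraries of these groups. With the replicate number as a block the change was 0.40 with an adjusted p of 0.0409, so the call depends on whether the pairing is used. Over all alternatives the adjusted p lay between 4.71e-07 and 0.12. The inhibitor changed 35.7% of the genes tested, 18.2% higher and 17.5% lower.

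FAM129B was at 119, 117, 118 and 119 CPM with the inhibitor, the narrowest spread of the 7 groups for this gene, and below every TM siCtrl library. Its log2 change against TM siCtrl was −0.46 ± 0.05 (adjusted p = 1.95e-09). Against DMSO siCtrl, where the level was 203 ± 9.56 CPM, the change was −0.78 ± 0.05 (adjusted p = 3.8e-17). Thus the level of FAM129B in TM PERKi siCtrl was the lowest of its 7 group means.

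Each PERK siRNA lowered FAM129A in part. TM siPERK-1 libraries had 123, 142, 133 and 108 CPM, all below the lowest TM siCtrl library, and TM siPERK-3 libraries had 115, 132, 132 and 91.2 CPM. The log2 changes against TM siCtrl were −0.56 ± 0.16 (adjusted p = 0.0144) for siPERK-1 and −0.67 ± 0.17 (adjusted p = 0.0043) for siPERK-3. In these comparisons 26.4% of all genes tested were called for siPERK-1 (13.3% as lower) and 26.8% for siPERK-3 (13.7% as lower). Without the fourth TM siPERK-1 library the change was −0.49 and its adjusted p 0.052, beside a range of 9.59e-06 to 0.052 over all alternatives. No difference in FAM129A was detected between the PERK siRNAs, with a log2 value of 0.11 ± 0.17 for siPERK-1 against siPERK-3 (95% interval −0.24 to 0.46, adjusted p = 0.822). Between them 4.73% of genes were called, 677 in number, and 1195 with the replicate block.

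FAM129B was not called with either PERK siRNA. It was at 158, 156, 160.5 and 164 CPM in TM siPERK-1 and at 172, 178, 162 and 192 CPM in TM siPERK-3. The log2 change against TM siCtrl was −0.03 ± 0.05 for siPERK-1 (95% interval −0.13 to 0.07, adjusted p = 0.735) and 0.11 ± 0.05 for siPERK-3 (adjusted p = 0.0971). The siPERK-3 value was called when the first TM siCtrl library was left out (0.15, adjusted p = 0.0327) or the third TM siPERK-3 library (0.15, adjusted p = 0.0353), beside a range of 0.0327 to 0.386 over all alternatives. The FAM129B difference between the siRNAs was not called, at −0.14 ± 0.05 for siPERK-1 against siPERK-3 (adjusted p = 0.114).

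A direct comparison set the inhibitor against the mean of the PERK siRNAs. FAM129A was higher with the inhibitor by 1.02 ± 0.14 on the log2 scale (adjusted p = 1.86e-06), at 247 ± 12.1 CPM in TM PERKi siCtrl beside 127 ± 14.6 CPM in TM siPERK-1 and 118 ± 19.3 CPM in TM siPERK-3. FAM129B was lower with the inhibitor, with a log2 change of −0.50 ± 0.05 (adjusted p = 4.19e-12). In this comparison 51.9% of genes were called. The mRNA of EIF2AK3, the gene for PERK itself, was 120.2 to 130.5 CPM in TM PERKi siCtrl, above its TM siCtrl range, and at most 30.5 CPM in the siRNA groups. The mRNA of the target was thus higher with the inhibitor and lower with the siRNAs than with tunicamycin alone.

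ATF4 siRNAs lowered FAM129A further than PERK siRNAs did. TM siATF4-2 libraries had 51.5, 57.5, 36.7 and 75.6 CPM, between the DMSO siCtrl and the TM siCtrl ranges and overlapping neither. TM siATF4-3 libraries had 14.4, 12.9, 8.88 and 22.3 CPM, which overlapped the DMSO siCtrl range. The log2 changes against TM siCtrl were −1.76 ± 0.18 (adjusted p = 1.45e-08) for siATF4-2 and −3.67 ± 0.21 (adjusted p = 5.33e-13) for siATF4-3, the second being 12.7-fold lower. Of the genes tested, 55.6% were called with siATF4-2, 27.2% as lower, and 61.9% with siATF4-3, 30.7% as lower. Counted from the most lowered of the 14314 genes, FAM129A was 181st with siATF4-2 and 84th with siATF4-3. In edgeR fits of the compared groups alone its adjusted p was 0.000252 with siATF4-2 and 5.67e-06 with siATF4-3.

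The ATF4 siRNAs differed from each other in FAM129A. The level in TM siATF4-2 was 3.76-fold that in TM siATF4-3, a log2 difference of 1.91 ± 0.22 (adjusted p = 2.53e-06), and FAM129A was 40th from the most raised of the 14314 genes in that comparison, where 14.7% of genes were called and 8.53% were higher in TM siATF4-2. In an edgeR fit of those groups alone the FAM129A difference was 1.90 with an adjusted p of 0.0158, the highest over all alternatives. ATF4 mRNA itself was higher in TM siATF4-2, at 221, 194, 177 and 358 CPM, than in TM siATF4-3, at 115, 98.5, 102 and 140.4 CPM. In both groups the fourth library had the most ATF4 and the most FAM129A.

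**Figure D2:**
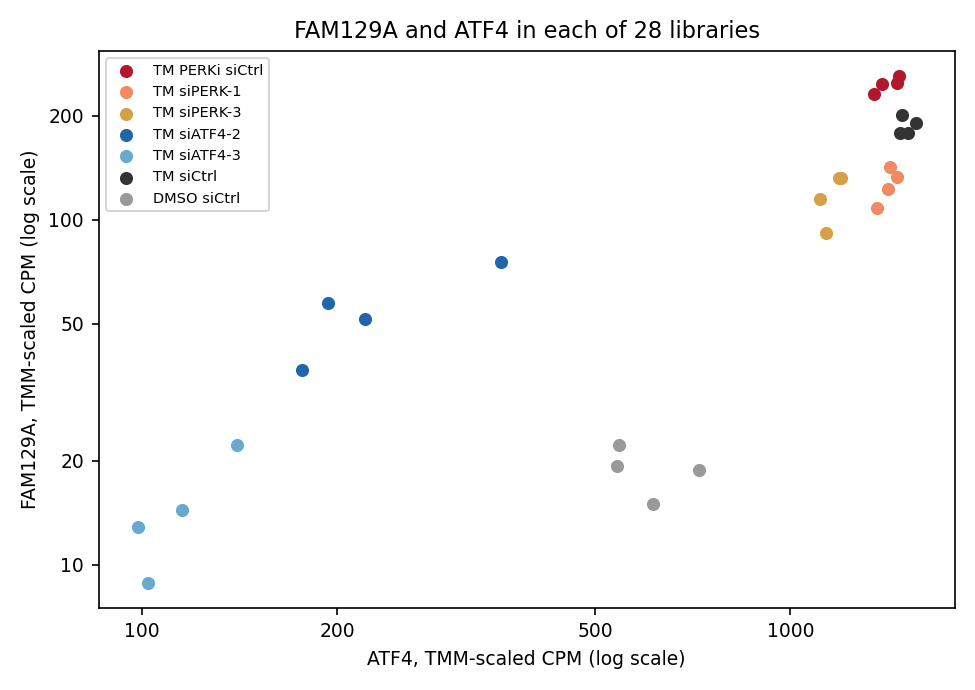
FAM129A against ATF4 in each of the 28 libraries (CPM, both axes log), coloured by group. The TM siATF4-2 libraries lie to the left of the DMSO siCtrl libraries, with 177 to 358 CPM of ATF4 against 539.5 to 723 CPM, and above them, with 36.7 to 75.6 CPM of FAM129A against 15.0 to 22.2 CPM.

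The plot of FAM129A against ATF4 shows that the level of ATF4 mRNA did not by itself order the level of FAM129A. Every TM siATF4-2 library held less ATF4 mRNA than any DMSO siCtrl library and more FAM129A than any of them. ATF4 is controlled largely at translation, which these counts do not measure. TM PERKi siCtrl libraries had 1344 to 1471 CPM of ATF4, all below the lowest TM siCtrl library, and the highest FAM129A levels of all.

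FAM129B was slightly higher with the ATF4 siRNAs than with tunicamycin alone. It was at 196, 171, 186 and 167 CPM in TM siATF4-2 and at 184, 188, 173 and 182 CPM in TM siATF4-3. The log2 changes against TM siCtrl were 0.14 ± 0.05 (adjusted p = 0.0139) and 0.16 ± 0.05 (adjusted p = 0.00681), in comparisons where 28.4% and 31.2% of genes were called higher. The siATF4-2 call was lost without the fourth TM siCtrl library (0.12, adjusted p = 0.0718), without the first TM siATF4-2 library (0.10, adjusted p = 0.102), with upper-quartile scaling (0.11, adjusted p = 0.0705) and in a fit of those groups alone (0.13, adjusted p = 0.0636); the adjusted p lay between 0.00342 and 0.102 over all alternatives. Between the ATF4 siRNAs the difference was −0.01 ± 0.05 for siATF4-2 against siATF4-3 (95% interval −0.11 to 0.09, adjusted p = 0.906).

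Set against the mean of the PERK siRNAs, the mean of the ATF4 siRNAs gave a log2 change of −2.10 ± 0.14 for FAM129A (adjusted p = 6.92e-12) and 0.11 ± 0.04 for FAM129B (adjusted p = 0.008). Of all genes tested, 63.9% were called in that comparison. The small FAM129B difference was 0.07 with an adjusted p of 0.091 under upper-quartile scaling, beside a range of 0.00145 to 0.091 over all alternatives.

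The level left in each blocked group was also set against DMSO siCtrl. No block was given without tunicamycin. An effect of a block on the unstressed level thus cannot be told apart from a loss of the tunicamycin response. FAM129A remained above DMSO siCtrl by a log2 change of 3.71 ± 0.19 with the inhibitor (adjusted p = 4.2e-14), 2.75 ± 0.19 with siPERK-1 (adjusted p = 1.92e-11), 2.64 ± 0.19 with siPERK-3 (adjusted p = 4.59e-11) and 1.55 ± 0.20 with siATF4-2 (adjusted p = 6.31e-07). With siATF4-3 it was not called, at −0.36 ± 0.24 (95% interval −0.86 to 0.14, adjusted p = 0.21). Leaving out the fourth TM siATF4-3 library gave −0.64 with an adjusted p of 0.0321, and leaving out single libraries moved the value between −0.64 and −0.19, with an adjusted p of 0.0321 to 0.527 over all alternatives. Of all genes tested, 72.9% were called in the comparison with the inhibitor, 63.9% with siPERK-1, 61.9% with siPERK-3, 59.7% with siATF4-2 and 57.4% with siATF4-3. All 5 share the DMSO siCtrl libraries.

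FAM129B remained below DMSO siCtrl in all 5 blocked groups. Beside the inhibitor value given above, the log2 changes were −0.34 with siPERK-1 (adjusted p = 1.26e-07), −0.20 with siPERK-3 (adjusted p = 0.000551), −0.17 with siATF4-2 (adjusted p = 0.00325) and −0.16 with siATF4-3 (adjusted p = 0.00657). Each of the 5 was called lower.

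**Figure D3:**
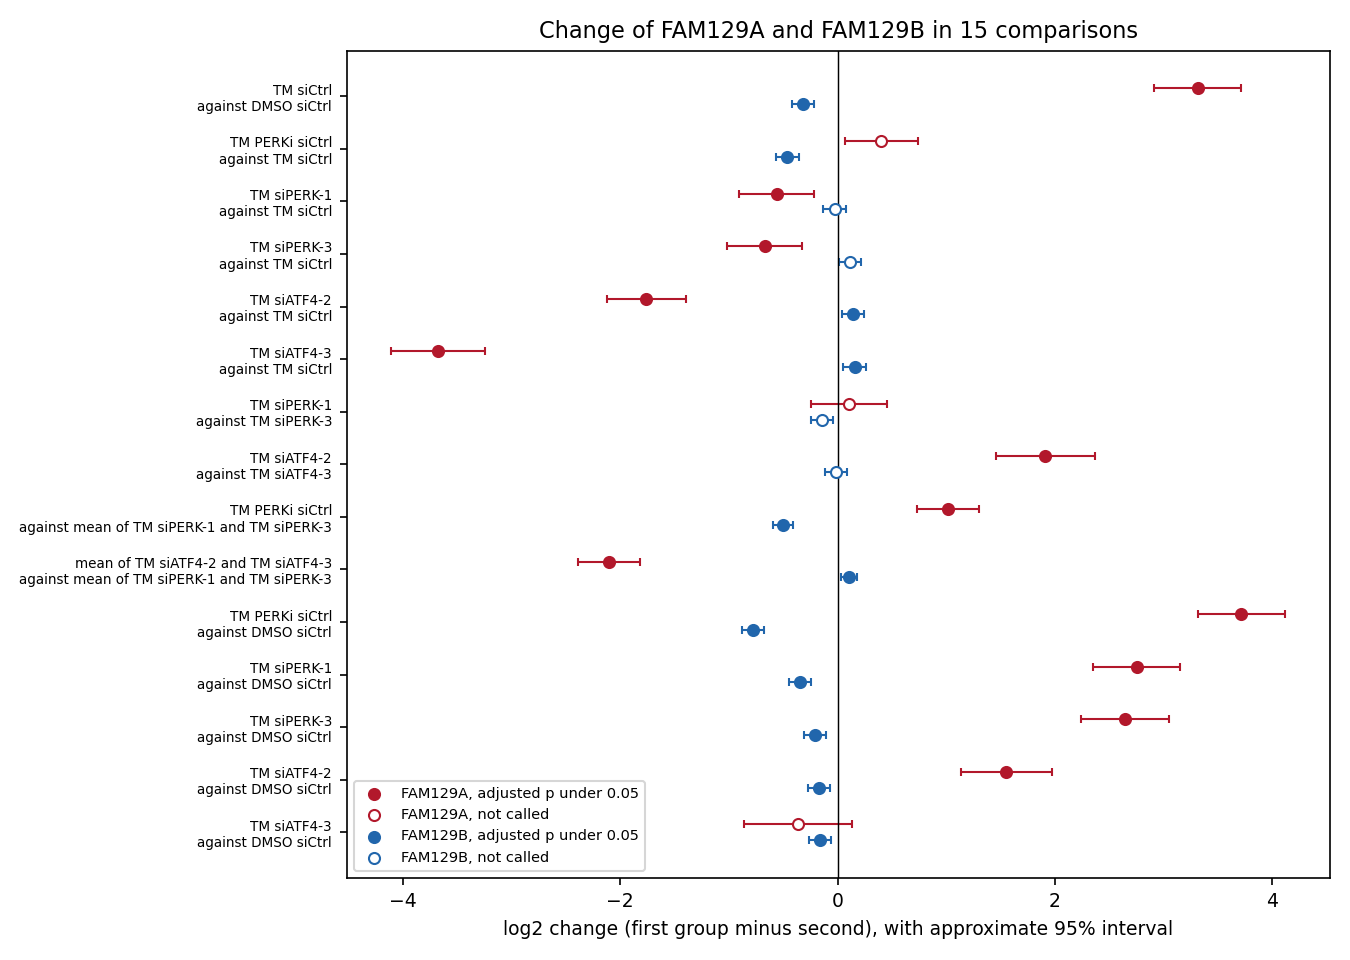
Log2 change of FAM129A and FAM129B (first group named minus the second) in the 15 comparisons, with approximate 95% intervals; filled points were called, open points were not, and the zero line marks no change. The FAM129A values run from −3.67 to 3.71 and the FAM129B values from −0.78 to 0.16.

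Expressed as a share of the tunicamycin change (the group's mean CPM minus the DMSO siCtrl mean, over the TM siCtrl mean minus the DMSO siCtrl mean), FAM129A kept 136 ± 7.22% with the inhibitor, 64.1 ± 8.70% with siPERK-1, 58.7 ± 11.5% with siPERK-3, 21.7 ± 9.57% with siATF4-2 and −2.50 ± 3.34% with siATF4-3 (SD over 4 libraries, both control means held fixed). The same share of the FAM129B decrease was 212 ± 3.11% with the inhibitor, 108 ± 8.53% with siPERK-1, 66.8 ± 31.7% with siPERK-3, 56.8 ± 34.4% with siATF4-2 and 53.1 ± 15.3% with siATF4-3. Single libraries lay at 26.0% to 102% with siPERK-3 and at 16.3% to 90.1% with siATF4-2. The limit given for the comparisons with DMSO siCtrl, that no block was given without tunicamycin, holds for these shares too.

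From the highest to the lowest mean, FAM129A followed the order TM PERKi siCtrl, TM siCtrl, TM siPERK-1, TM siPERK-3, TM siATF4-2, DMSO siCtrl, TM siATF4-3. Neighbours whose difference was not called were TM PERKi siCtrl and TM siCtrl, whose libraries did not overlap, TM siPERK-1 and TM siPERK-3, and DMSO siCtrl and TM siATF4-3. The step between TM siPERK-3 and TM siATF4-2, whose libraries did not overlap, was not tested. The highest mean was 16.9 times the lowest. FAM129B followed the order DMSO siCtrl, TM siATF4-3, TM siATF4-2, TM siPERK-3, TM siCtrl, TM siPERK-1, TM PERKi siCtrl, and its highest mean was 1.71 times its lowest. There the libraries of neighbouring groups overlapped from TM siATF4-3 down to TM siPERK-1, and DMSO siCtrl and TM PERKi siCtrl stood apart at the ends. The relative spread between libraries was also unlike: the coefficient of variation ran from 4.91% (TM PERKi siCtrl) to 38.4% (TM siATF4-3) for FAM129A, and from 1.05% to 7.62% for FAM129B.

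To compare the levels of the genes with each other, counts were divided by exon length (RPKM, the CPM per kilobase of exon). FAM129A was at 26.8 ± 1.59 RPKM in TM siCtrl and 2.70 ± 0.424 RPKM in DMSO siCtrl, while FAM129B was at 39.9 ± 2.16 RPKM in TM siCtrl and 49.7 ± 2.34 RPKM in DMSO siCtrl. FAM129A thus made up 40.2 ± 2.29% of the summed RPKM of the pair in TM siCtrl, with libraries at 37.2% to 42.7%, and 5.14 ± 0.662% in DMSO siCtrl, with libraries at 4.18% to 5.66%. With the inhibitor it was the larger part, at 55.0 ± 1.43% and 53.2% to 56.7%. Which gene is the larger part depends on the exon lengths used. Before division by length FAM129A averaged 187 CPM and FAM129B 163 CPM in TM siCtrl. The share was 31.6 ± 2.92% in TM siPERK-1, 28.1 ± 4.57% in TM siPERK-3, 15.3 ± 4.55% in TM siATF4-2 and 4.46 ± 1.61% in TM siATF4-3. The sum of both genes moved far less, with group means between 46.6 ± 1.94 RPKM in TM siATF4-3 and 66.8 ± 1.99 RPKM in TM siCtrl.

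**Figure D4:**
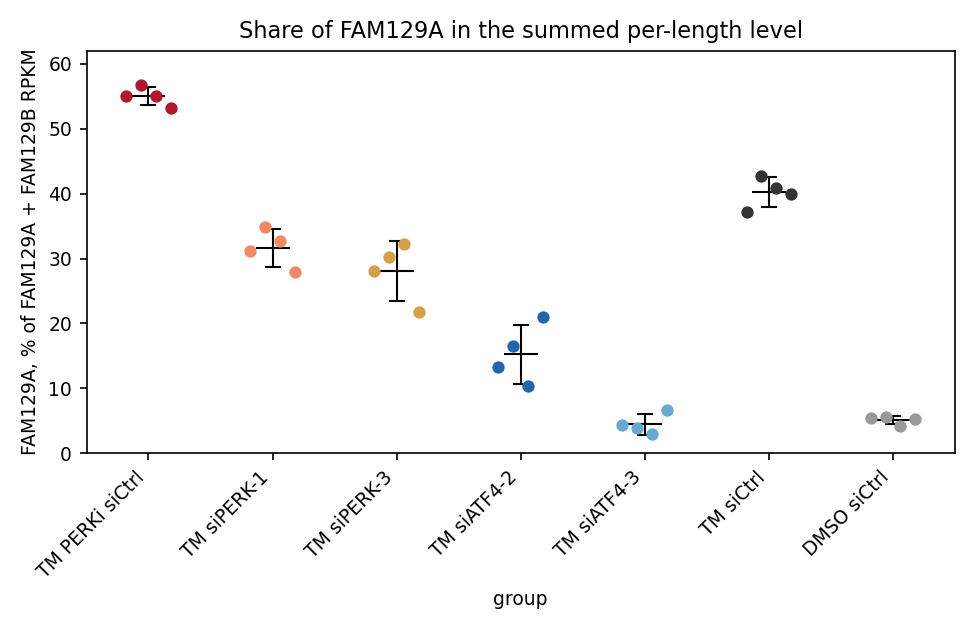
Share of FAM129A in the summed RPKM of FAM129A and FAM129B (%), per library, with mean and SD (n = 4). The TM PERKi siCtrl libraries lie at 53.2% to 56.7%, the TM siCtrl libraries at 37.2% to 42.7% and the DMSO siCtrl libraries at 4.18% to 5.66%.

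Whether the genes changed unequally was tested on the log2 ratio of FAM129A to FAM129B within each library, a value that does not depend on library scaling. The mean ratio was −0.57 in TM siCtrl and −4.22 in DMSO siCtrl, a difference of 3.64. Against TM siCtrl the difference was 0.86 with the inhibitor, −0.54 with siPERK-1, −0.79 with siPERK-3, −1.95 with siATF4-2 and −3.91 with siATF4-3. In each of the 6 comparisons the libraries of the groups did not overlap and the exact two-sided permutation test gave p = 0.0286, which is the smallest that its 70 splits allow (0.0286 also after adjustment over the 6 tests). The inhibitor moved the ratio up, and all 4 siRNAs moved it down. Over the 7 group means of log2 CPM, Pearson's r between the genes was −0.758, given as a description over 7 points of 4 libraries each.

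Among the genes whose 7 group means of log2 CPM were most like those of FAM129A, out of 11456 tested genes whose mean log2 CPM reached 1, were HDAC6 (r = 0.998), ADM2 (0.997), SARS (0.997), MAL2 (0.996), SESN2 (0.995), MOV10L1 (0.993) and XPOT (0.992). They included SARS, the cytosolic seryl-tRNA synthetase, XPOT, which exports tRNA from the nucleus, ADM2, a secreted peptide hormone, and SESN2, a stress-induced brake on mTORC1. ADM2 and SESN2 are also on the list of ATF4 and CHOP targets described further on. The size of their changes was not alike, since r ignores scale. SESN2 was at 175 ± 7.74 CPM in TM siCtrl and 38.0 ± 10.3 CPM in DMSO siCtrl, with 222 ± 4.72 CPM in TM PERKi siCtrl and 26.0 ± 3.19 CPM in TM siATF4-3. HDAC6, a cytoplasmic deacetylase, ranged only from 56.5 ± 3.30 CPM in TM siATF4-3 to 78.4 ± 3.02 CPM in TM PERKi siCtrl. MOV10L1, an RNA helicase of the germline piRNA pathway, reached 9.57 ± 1.07 CPM with the inhibitor and was at 0.202 ± 0.299 CPM in TM siATF4-3.

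**Figure D5:**
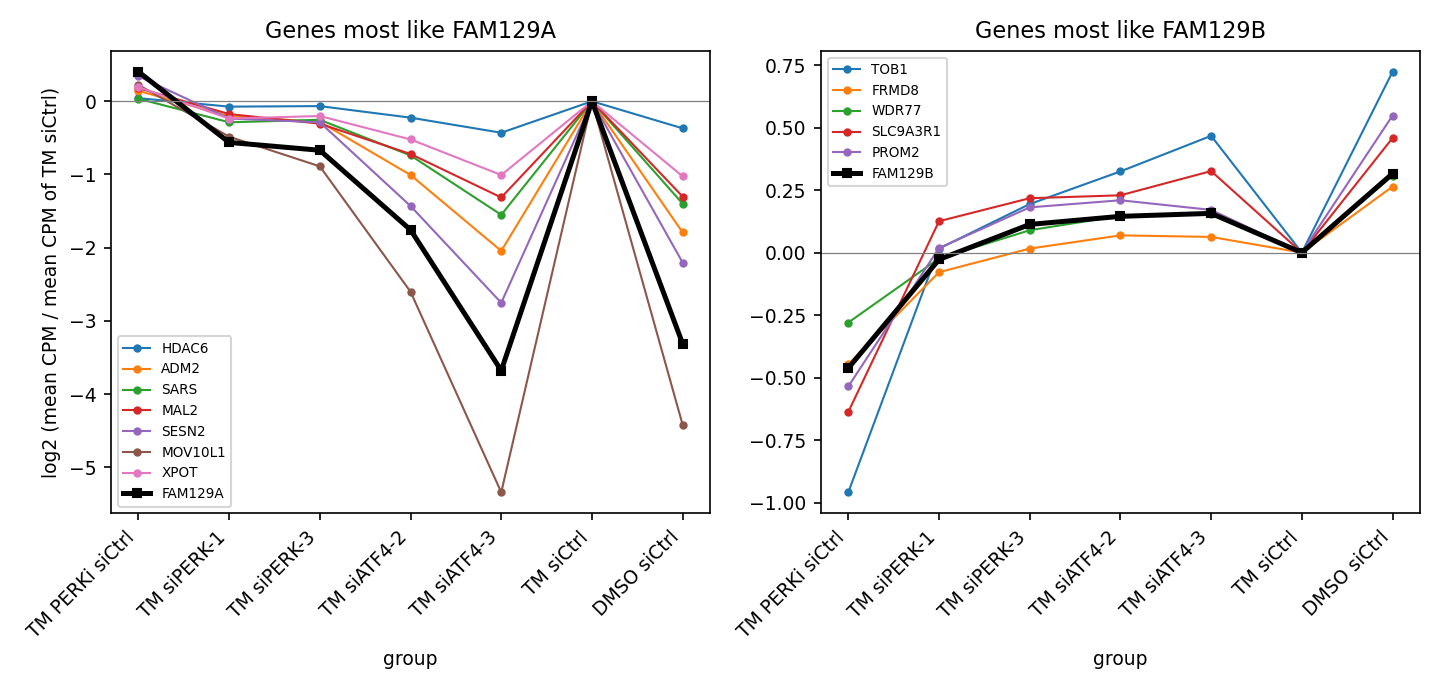
Log2 of the group mean CPM over the mean CPM of TM siCtrl, for FAM129A and 7 genes with a high Pearson r (left) and for FAM129B and its 5 (right), over the 7 groups. The lines of the left panel run together in shape but not in height, since HDAC6 covers 56.5 to 78.4 CPM and FAM129A covers 14.6 to 247 CPM.

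For FAM129B the most alike were TOB1 (r = 0.994), FRMD8 (0.989), WDR77 (0.987), SLC9A3R1 (0.986) and PROM2 (0.986). TOB1, an antiproliferative protein, was at 78.9 ± 10.99 CPM in TM siCtrl and 130.2 ± 6.37 CPM in DMSO siCtrl, and at 40.6 ± 1.63 CPM with the inhibitor. PROM2, a membrane protein of cell protrusions, was at 59.4 ± 3.44 CPM in TM siCtrl and 86.9 ± 5.59 CPM in DMSO siCtrl, and at 41.0 ± 3.27 CPM with the inhibitor. Exons of TOB1 overlap TOB1-AS1, those of WDR77 overlap ATP5F1 and those of SLC9A3R1 overlap MIR3615, so their counts may hold reads of the partner.

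The gene lists that follow were chosen with earlier results of these data known, so their counts are a description and not independent support. They are read against the share of all 14314 genes that was called. With tunicamycin this was 34.3% higher and 34.7% lower. Against TM siCtrl it was 18.2% higher and 17.5% lower with the inhibitor, 13.1% and 13.3% with siPERK-1, 13.1% and 13.7% with siPERK-3, 28.4% and 27.2% with siATF4-2, and 31.2% and 30.7% with siATF4-3. The median log2 change of all genes lay between −0.005 and 0.0066 in these 6 comparisons.

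A list of 31 textbook targets of ATF4 and of its partner CHOP gives the pathway around FAM129A. With tunicamycin 31 of 31 were called higher, against 34.3% of all genes, with a median log2 change of 1.63 beside 0.01 over all genes. FAM129A, which is not on the list, rose more than 29 of them and less than 2. With the inhibitor 15 targets were higher, 3 lower and 13 not called (median 0.24), against 18.2% higher and 17.5% lower of all genes, and 8 had a larger log2 value than FAM129A. With siPERK-1 1 was higher and 13 were lower (median −0.24), and with siPERK-3 1 was higher and 15 were lower (median −0.28); 2 of the 31 were lowered more than FAM129A in each. Of all genes, 13.3% and 13.7% were lower in these comparisons. With siATF4-2 29 were lower (median −1.42) and with siATF4-3 all 31 were lower (median −2.08), against 27.2% and 30.7% of all genes. FAM129A was lowered less than 9 targets with siATF4-2 and less than 2 with siATF4-3.

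The 4 targets with the largest tunicamycin change were SLC3A2, a subunit of amino acid transporters, HERPUD1, an ER-associated degradation factor, the transcription factor ATF3, and DDIT3, which encodes CHOP and whose exons overlap MARS. Their tunicamycin changes were 3.79 ± 0.17 for DDIT3, 3.42 ± 0.10 for SLC3A2, 3.14 ± 0.07 for HERPUD1 and 3.06 ± 0.16 for ATF3 on the log2 scale (highest adjusted p = 3.6e-14, for ATF3). With the inhibitor all 4 were called higher, with log2 changes between 0.39 for SLC3A2 and 1.36 for ATF3. With the PERK siRNAs none of the 4 was called lower; HERPUD1 was higher, by 0.45 with siPERK-1 (adjusted p = 9.61e-07) and 0.48 with siPERK-3 (adjusted p = 2.54e-07). FAM129A was called lower with both. With siATF4-2 DDIT3 was not called, at −0.15 ± 0.14 (adjusted p = 0.389), while SLC3A2 (−1.22), ATF3 (−1.10) and HERPUD1 (−0.52) were lower, beside −1.76 for FAM129A. With siATF4-3 all 4 were lower, by log2 values of −0.89 for DDIT3, −1.70 for SLC3A2, −1.23 for HERPUD1 and −2.25 for ATF3, beside −3.67 for FAM129A.

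Of 16 genes for eIF2 kinases, eIF2 and eIF2B subunits and the PPP1R15 phosphatase with its regulators, 7 were higher and 8 lower with tunicamycin, beside 34.3% higher and 34.7% lower of all genes. DNAJC3, an ER co-chaperone that inhibits PERK, rose by a log2 change of 2.48 ± 0.06 and PPP1R15A, which directs the phosphatase to eIF2α, by 1.99 ± 0.10. EIF2AK3, whose exons overlap LOC101928371, rose by 1.56 ± 0.07. EIF2AK4, the kinase activated by amino acid lack, changed by −0.98 ± 0.05. With the inhibitor 8 genes of the list were higher and 5 lower, with siPERK-1 2 and 4, with siPERK-3 3 and 3, with siATF4-2 8 and 4, and with siATF4-3 6 and 6. The lower genes with siPERK-1 and siPERK-3 include EIF2AK3 (−1.86 and −2.05), the target of those siRNAs. Of all genes, 35.7% were called with the inhibitor, 26.4% with siPERK-1, 26.8% with siPERK-3, 55.6% with siATF4-2 and 61.9% with siATF4-3.

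Of 18 genes of the mTORC1 translation arm, 9 were higher and 4 lower with tunicamycin (median 0.11), so 13 of 18 were called, near the 69.0% of all genes called there. The largest called changes were −0.74 ± 0.04 for AKT1, a kinase upstream of mTORC1, 0.59 ± 0.06 for PDCD4, a brake on the helicase eIF4A whose exons overlap BBIP1 and MIR4680, 0.45 ± 0.05 for RHEB, the GTPase that activates mTORC1, and −0.42 ± 0.05 for EIF4E, the cap-binding factor. The counts of higher and lower genes were 5 and 5 with the inhibitor, 3 and 3 with siPERK-1, 4 and 4 with siPERK-3, 6 and 8 with siATF4-2, and 9 and 7 with siATF4-3, where all genes gave 35.7%, 26.4%, 26.8%, 55.6% and 61.9% called in that order.

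FAM129A is known as an androgen-responsive gene in prostate cells, so a list of androgen-regulated genes was read beside it. Of the 21 tested, 1 was higher and 20 were lower with tunicamycin (median −1.42), the opposite of FAM129A and against 34.7% lower of all genes. TMEFF2 changed by −2.95 ± 0.24, STEAP4 by −2.74 ± 0.25, KLK2 by −2.74 ± 0.14 and KLK3, the gene for prostate-specific antigen, by −2.61 ± 0.25. With the inhibitor 2 were higher and 12 lower, with siPERK-1 6 and 1, with siPERK-3 3 and 2, with siATF4-2 8 and 4, and with siATF4-3 12 and 2. Of all genes, 35.7% were called with the inhibitor (17.5% as lower), 26.4% with siPERK-1, 26.8% with siPERK-3, 55.6% with siATF4-2 (28.4% as higher) and 61.9% with siATF4-3 (31.2% as higher).

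For FAM129B the corresponding list held 20 genes of EGFR, RAS and ERK signalling and of the KEAP1 and NRF2 pathway. With tunicamycin 13 were higher and 4 lower (median 0.21), beside 34.3% higher and 34.7% lower of all genes, FAM129B itself being lower. The redox genes TXNRD1, for thioredoxin reductase, and GCLM, for a subunit of the enzyme that starts glutathione synthesis, rose by 1.52 ± 0.06 and 1.40 ± 0.07. The ERK feedback genes SPRY4 and DUSP6 were called higher at levels of 0.409 ± 0.160 CPM and 1.22 ± 0.428 CPM in TM siCtrl, against 0.159 ± 0.154 CPM and 0.530 ± 0.172 CPM in DMSO siCtrl, too low to be read closely. With the inhibitor 5 were higher and 5 lower, with siPERK-1 1 and 8, with siPERK-3 1 and 8, with siATF4-2 4 and 10, and with siATF4-3 3 and 11. Of all genes, 17.5% were lower with the inhibitor, 13.3% with siPERK-1, 13.7% with siPERK-3, 27.2% with siATF4-2 and 30.7% with siATF4-3.

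The nearest tested genes on chromosome 1 did not share the size of the FAM129A change. EDEM3, which trims the glycans of misfolded ER proteins, lies 36.1 kb away on the same strand and was at 216 ± 8.85 CPM in TM siCtrl and 101 ± 7.40 CPM in DMSO siCtrl (adjusted p = 7.16e-22). It was lower with siATF4-2 (−0.55, adjusted p = 4.34e-12) and siATF4-3 (−0.67, adjusted p = 1.41e-14). On the other side RNF2, a Polycomb ubiquitin ligase 70.8 kb away, changed by −0.04 ± 0.08 (adjusted p = 0.698), TRMT1L by −0.07 ± 0.05 (adjusted p = 0.237) and SWT1 by −0.16 ± 0.11 (adjusted p = 0.2). Beyond EDEM3, C1orf21 was lower with tunicamycin (−0.68 ± 0.07) and TSEN15, a subunit of the tRNA splicing endonuclease, higher (0.35 ± 0.07). EDEM3 was not alone in being lower with siATF4-2 and siATF4-3. SWT1 (−0.54 and −0.55) and TSEN15 (−0.20 and −0.56) were also called lower with both. C1orf21 was called higher with both (0.25 and 0.25), and RNF2 and TRMT1L were not called. Of all genes tested, 27.2% and 30.7% were called lower in these comparisons.

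Of the neighbours of FAM129B on chromosome 9 described here, none was called lower with tunicamycin, beside 34.7% of all genes tested. They are too few to be set against that share. LRSAM1, a ubiquitin ligase whose model ends 1.84 kb from that of FAM129B, had a log2 change of 0.01 ± 0.07 (adjusted p = 0.927). RPL12, a ribosomal protein gene, was called higher, by 0.21 ± 0.04. C9orf117 (0.21 ± 0.19) and the small nucleolar RNA gene SNORA65 (−0.61 ± 0.36) were not called. SNORA65 lies within the span of RPL12. It stood at 0.481 ± 0.168 CPM in TM siCtrl and 0.737 ± 0.0749 CPM in DMSO siCtrl, too low to be read closely.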

How the data were processed

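Total RNA of 28 LNCaP libraries was sequenced, 4 in each of 7 groups taken from the sample labels. The authors deposited raw counts of reads per gene in 6 tables of 25370 lines, with exon coordinates. Per the submitters' processing notes, TopHat2 2.1.0, featureCounts 1.5.0-p1, DESeq2 1.10.1 and build hg19 were used; the annotation and settings, and whether counting used the strand, are not stated there. The kit was strand-specific, per the labels' protocols. A single nameless line held 0 counts and was left out. TM siCtrl columns repeated across tables held 0 differing values and were used once.

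TMM-scaled counts were fitted in edgeR 4.0.16 under R 4.3.3 (minimum count 10, minimum total 15, robust quasi-likelihood F-test on 7 group means, two-sided). All 28 libraries entered 1 fit, so the spread is shared by the groups. Each of 15 comparisons had its own Benjamini-Hochberg adjustment over the 14314 genes tested. The SE is the absolute log2 change over the square root of F, and 95% intervals use the t quantile, so both are approximate. The procedure was tested on simulated data. CPM and RPKM were computed from the counts and the exon lengths that the authors deposited.

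The labels do not say that a replicate number marks a shared experiment. Deviations from group means of same-numbered libraries correlated at −0.0167 to 0.485 over 84 pairs, and for 10 of the 21 pairs of groups every correlation was over 0.1. A shared experiment would hold for all groups, so this split by pairs of groups does not decide whether the numbers pair libraries. Of the 84 pairs, 67 were over 0.1, and 27 of the 28 libraries were closest on average to libraries of their own number. The main fit did not use the pairing, which entered only as the replicate block.

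Named were both genes everywhere, FAM129C, the siRNA targets, the 8 and 5 genes most like either gene over group means, 3 neighbours on each side, and up to 4 tunicamycin-called genes from each list; some of these are not reported here. Genes and lists were chosen with earlier results of these data known. Alternatives were other scalings (DESeq2 1.42.0 size factors, upper quartile), no filter, DESeq2, limma-voom (limma 3.58.1), a fit of the compared groups alone, the replicate block and each library left out.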

Additional observations from a re-analysis of the deposited data

How the results depend on the processing

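Of the member values under alternatives other than leaving out a library, 204 kept direction and side of the threshold, 3 passed it newly and 3 no longer passed. FAM129A with the inhibitor against TM siCtrl (0.40, not called) was called at 0.40 with limma-voom (adjusted p = 0.00697), at 0.40 with the replicate block (adjusted p = 0.0409) and at 0.40 in edgeR on those groups alone (adjusted p = 4.71e-07). FAM129B with siATF4-2 was no longer called at 0.11 with upper-quartile scaling or at 0.13 in edgeR on those groups alone, and with ATF4 against PERK siRNAs it was not called at 0.0688 with upper-quartile scaling. The count of genes called between siPERK-1 and siPERK-3 was 1195 with the replicate block, and 392 to 627 when leaving out 1 library. The block changed no other call on either gene. The cause of these shifts was not tested. Leaving out 1 library moved FAM129A between −0.62 and −0.49 with siPERK-1 and between −0.64 and −0.19 with siATF4-3 against DMSO siCtrl. It moved FAM129B between −0.0475 and 0.011 with siPERK-1, 0.0671 and 0.15 with siPERK-3, 0.10 and 0.18 with siATF4-2, and −0.0549 and 0.0231 for siATF4-2 against siATF4-3, the first and last changing sign. All log2 ratios kept their direction and test result with 5 counts added to each gene, but with 1 library left out the exact test had 35 splits. The other scalings shifted the median of all genes by at most 0.0399 (log2). FAM129A rested on as few as 99 counts in TM siATF4-3, where its libraries varied most.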
